A study of Saccharomyces cerevisiae with 51 samples.

Results

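The composition of the pooled MATa yeast deletion library was compared between cultures that had been exposed to α-factor (In presort) and cultures left in vegetative growth (Un presort), before any cell was sorted by fluorescence. Each group held 3 replicates, and each replicate was deposited as an UPTAG and a DNTAG sample, so 12 of the 51 samples of the series entered the comparison. Of the 6128 deletion mutants in the count table, 3414 had a mean of at least 50 reads in Un presort, both tags summed, and were tested. The mutant just inside that limit was *gda1*Δ (mean 50 reads in Un presort and 83 in In presort), and the mutant just outside was *cap1*Δ (49.7 and 53.3 reads).

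Both groups came from the same pool of deletion strains, labelled haploid MATa and mostly BY4741 derivatives with a few BY4740 derivatives, transformed with a reporter in which the *FUS1* promoter drives GFP next to a *LEU2* marker. The reporter replaces *BAR1*, the gene of the protease that degrades α-factor, so by design the strains of both groups lack *BAR1* as well as their own deleted gene. In presort had been given α-factor at 10 nM, for 2 h, and Un presort none. A thawed aliquot was divided into an induced and an uninduced flask, and the sorted pools of the series were grown to saturation in medium without leucine before DNA was made; whether the presorted cells were grown in the same way is not given in the sources used here. A mutant is a single pooled strain that may also carry changes elsewhere (the study lists the library strains of *WHI3* and *KCH1*, both tested here, as diploid). Its share of reads is a share of barcode DNA. Here it stands for the share of the culture, which was not checked against cell counts, and it is not a growth rate.

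α-Factor is the mating pheromone of MATα cells. In MATa cells it binds the receptor Ste2, which frees the Gβγ dimer Ste4-Ste18. The dimer recruits the scaffold Ste5 and activates a kinase cascade of Ste20, Ste11, Ste7, and the MAP kinases Fus3 and Kss1, which induces genes such as *FUS1* through Ste12 and arrests the cell in G1 through Far1. Cells that lack an essential step of this cascade are sterile and continue to divide in pheromone. Cells that lack Sir2, Sir3, or Sir4 express both mating types, and thereby lose the haploid mating program, whereas cells that lack Sir1 silence in part. Each deletion strain carries an UPTAG and a DNTAG barcode, and the reads of the barcodes count the strain in the pool.

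The 6 replicates held between 547624 (In presort replicate 3) and 10467729 (In presort replicate 1) reads, and between 3897 and 4094 mutants had at least 1 read. The 50 most abundant mutants of each replicate took 10.7% to 13.6% of its reads. The mix of the tags differed between replicates. UPTAG reads made up 54.7%, 67.4%, and 20.2% of the reads of Un presort replicates 1, 2, and 3, and 38.6%, 20.7%, and 56.3% of those of In presort. The tag mix did not separate the groups, but the summed counts of mutants with unequal tags varied with it. The *aac3*Δ strain, which lacks a mitochondrial ADP/ATP carrier and was read almost only through its UPTAG, had 3552, 2359, and 750 RPM (its reads scaled to a total of 1000000 per replicate) in Un presort and 2779, 913, and 2980 RPM in In presort, and was lowest in the 2 replicates with the smallest UPTAG shares. Each of the 440 mutants with a single usable tag shared this limit, and the median size of their log2 fold changes was 0.33, against 0.08 for the 2974 mutants with both. Values are therefore also given tag-balanced, in which both tags count equally. A tag-balanced RPM or share is the mean over both tags of the share of reads within that tag, and a tag-balanced log2 fold change is the mean of the log2 differences of the usable tags. The latter departs from the log2 ratio of the former where the tags differ.

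**Figure D1:**
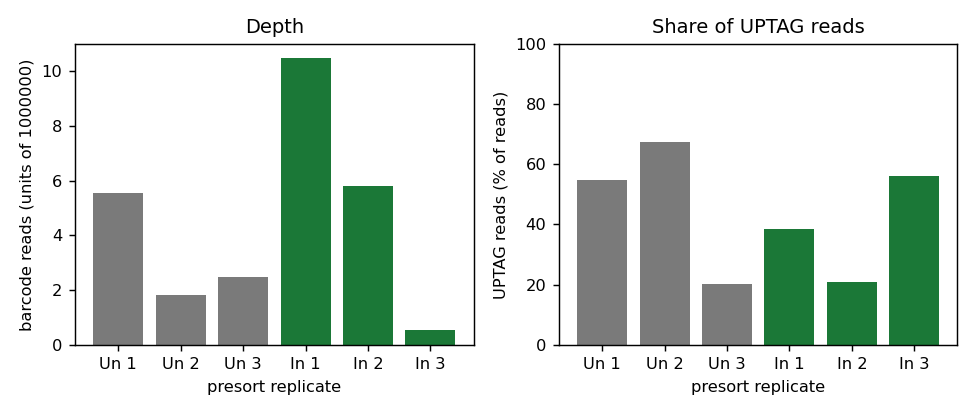
Barcode reads in units of 1000000 (left) and UPTAG reads as a percentage of all reads (right) for the 3 Un presort replicates (grey) and the 3 In presort replicates (green), 1 bar per replicate. In presort replicate 3 was the shallowest, and the UPTAG share ran from 20.2% to 67.4% with no split between the groups.

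No deletion mutant was called higher or lower in In presort when all 3414 were tested together, which does not show that none changed. With edgeR's quasi-likelihood test and Benjamini-Hochberg adjustment, 0% of the mutants (0 higher and 0 lower in In presort) had an adjusted p under 0.05, and the smallest adjusted p was 0.999. At an unadjusted p under 0.05, 20 mutants were higher (0.586%) and 14 were lower (0.41%). DESeq2 also called 0 mutants, and had 14 higher and 11 lower at an unadjusted p under 0.05. The tag-balanced values, tested with limma, gave 0 calls as well, with 40 higher and 23 lower before adjustment. With a block for the replicate number, 0 mutants were called from the summed counts (44 higher and 14 lower before adjustment) and 0 from the tag-balanced values (142 higher, 4.16%, and 61 lower, 1.79%, before adjustment, with a smallest adjusted p of 0.0757). No label ties replicates of the same number, so the block is an assumption.

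The intervals show what size of change these replicates could miss. In the tag-balanced fit, the 95% interval of 3157 of the 3414 mutants (92.5%) lay between log2 fold changes of -1 and 1, and that of 2198 (64.4%) lay between -0.5 and 0.5. These intervals are per mutant and are not adjusted for the number of mutants. The median log2 fold change over all mutants was -0.01 from the summed counts and 0.01 tag-balanced. The UPTAG and the DNTAG of a mutant gave the same direction for 1653 of 2974 mutants (55.6%), and their log2 differences had a Pearson's r of 0.09 across mutants, which share libraries and are not independent.

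The mutants with the smallest p had groups that did not overlap in the summed counts, which picking by p favors. None passed the adjusted threshold. Among those that were higher in In presort was *egd2*Δ (YHR193C), which lacks a subunit of the nascent polypeptide-associated complex. It had 92.1, 86.1, and 86.6 RPM in Un presort and 124, 124, and 131 in In presort, a log2 fold change of 0.52 ± 0.10 (SE, as in the values that follow, over 3 replicates per group). Every induced replicate was above every uninduced replicate, and both tags were higher (by 0.72 from the UPTAG and 0.31 from the DNTAG, on the log2 scale), with an adjusted p of 0.999 in edgeR. The *soa1*Δ strain (YIL166C, a sulfur compound transporter) had 64.6, 72.4, and 101 RPM in Un presort and 131, 138, and 122 in In presort (0.73 ± 0.18). Tag-balanced, its separation was thin, since Un presort replicate 2 (98.0) and In presort replicate 2 (98.5) nearly met.

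The *rps12*Δ strain, without a protein of the small ribosomal subunit, had 200, 144, and 186 RPM in Un presort and 257, 219, and 252 in In presort (0.46 ± 0.15). The *zip1*Δ strain, which lacks a component of the meiotic synaptonemal complex, had 128, 145, and 150 against 166, 189, and 199 RPM (0.39 ± 0.11). The *csa1*Δ strain (YPR174C) had 50.6, 51.6, and 52.9 against 61.1, 72.7, and 80.3 RPM (0.45 ± 0.14). The groups of these mutants did not overlap in the summed counts, but those of *rps12*Δ and *zip1*Δ overlapped when tag-balanced. The remaining mutant of these 6 was *sir2*Δ, described with the silencing genes.

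On the lower side, *pfa5*Δ, which lacks a palmitoyltransferase, had the smallest p. Its 422, 434, and 522 RPM in Un presort stood above 310, 356, and 338 in In presort, and its log2 fold change was -0.45 ± 0.10, with an adjusted p of 0.999 in edgeR. Both tags gave nearly the same value (-0.43 and -0.42). The *apa1*Δ strain, without a diadenosine tetraphosphate phosphorylase, had 259, 256, and 263 RPM against 203, 225, and 208 (-0.29 ± 0.08). The *hop1*Δ strain, which lacks a protein of the meiotic chromosome axis, had 32.5, 35.7, and 34.5 against 26.7, 22.4, and 23.7 (-0.48 ± 0.16). Its difference was present in the UPTAG (-0.91) (log2 CPM), whereas the DNTAG gave 0.09, or -0.060 in the edgeR fit of DNTAG reads alone.

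The other members of the lower group were *irs4*Δ, *psd2*Δ, and *mpf1*Δ. The *irs4*Δ strain, in which a regulator of phosphoinositide levels is missing, had the fewest reads, at 19.1, 29.1, and 18.9 RPM against 14.2, 12.3, and 12.8 (-0.74 ± 0.25). The *psd2*Δ strain, without a phosphatidylserine decarboxylase, had 128, 152, and 142 against 110, 121, and 110 (-0.30 ± 0.11). The *mpf1*Δ strain (YNL144C) had 187, 194, and 187 against 164, 149, and 161 (-0.26 ± 0.09). In all 3, the induced replicates lay below the uninduced ones, in the summed and in the tag-balanced values. Groups that did not overlap were found elsewhere too. From the summed counts, 70 of the 3414 mutants (2.05%) had every In presort replicate above every Un presort replicate, and 99 (2.9%) had every one below. Tag-balanced, 82 (2.4%) were above in this way and 166 (4.86%) were below.

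**Figure D2:**
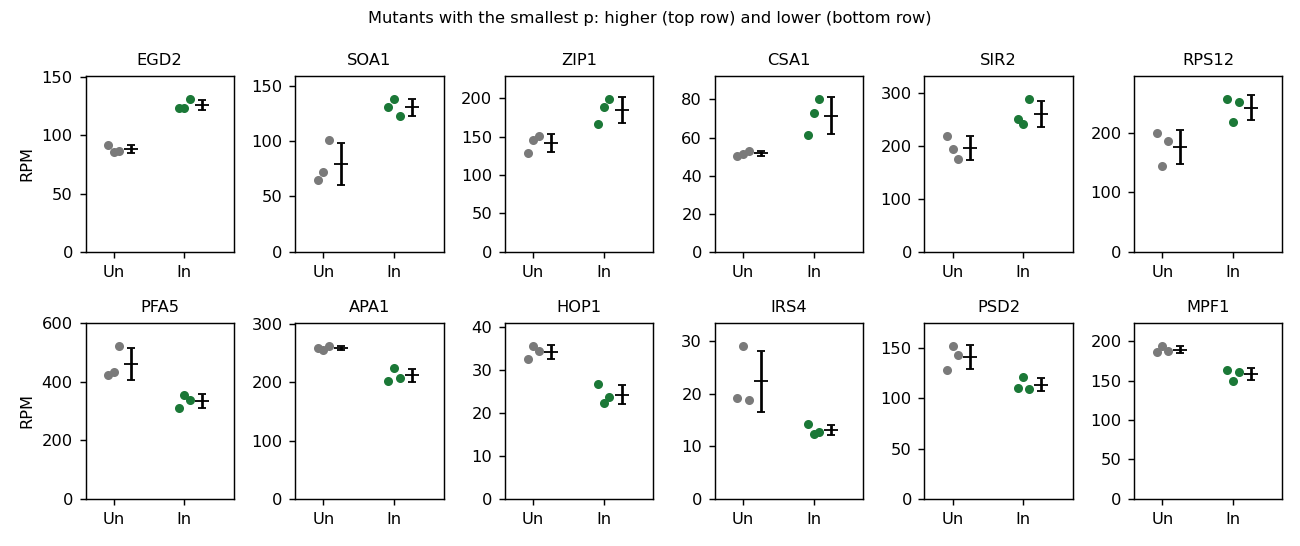
RPM of the 6 mutants of smallest p among those higher (top row) and among those lower (bottom row) in In presort, with the 3 Un presort replicates in grey, the 3 In presort replicates in green, and the mean ± SD in black. The groups do not overlap in any panel, and the adjusted p of each mutant was 0.999 in edgeR.

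The mutants of the pheromone cascade leaned toward a larger share in α-factor. Of the 11 genes of this list, 8 were tested; *ste18*Δ, *ste12*Δ, and *fus3*Δ had too few reads. None passed the test, 0 of the 8 had an unadjusted p under 0.05, and all 8 had a positive log2 fold change. Their median was 0.28, against -0.01 over all mutants tested, of which 48.1% were positive.

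The mutant of the receptor, *ste2*Δ (YFL026W), had 78.7, 86.7, and 86.2 RPM in Un presort and 89.2, 125, and 100 in In presort (log2 fold change 0.33 ± 0.15). Its groups did not overlap in the summed counts and did when tag-balanced. For the Gβ subunit, *ste4*Δ (YOR212W) had 409, 285, and 330 RPM against 448, 396, and 444 (0.33 ± 0.15). Un presort replicate 1 was above In presort replicate 2, and within each replicate number the induced value was the higher one. The same held for the scaffold mutant *ste5*Δ (YDR103W), with 187, 155, and 164 against 226, 183, and 217 (0.31 ± 0.13).

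In the kinase module, *ste11*Δ (the MAP kinase kinase kinase) had 72.4, 54.3, and 56.6 RPM against 89.4, 64.9, and 69.4 (0.30 ± 0.20). The *ste7*Δ strain (the MAP kinase kinase) had 309, 217, and 238 against 356, 282, and 263 (0.25 ± 0.19). Replicate 1 was the highest of its group in both mutants, so the groups overlapped. Within each replicate number, the induced value was the higher one. For *ste20*Δ (the p21-activated kinase), 261, 160, and 188 RPM stood against 256, 220, and 254 (0.26 ± 0.20), and for *ste50*Δ (the adaptor of Ste11), 795, 563, and 555 stood against 778, 664, and 747 (0.20 ± 0.17). In both, the tag-balanced difference of replicate 1 was -0.01, and replicates 2 and 3 were higher in In presort.

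The exception in the cascade was *kss1*Δ, whose MAP kinase overlaps in function with Fus3. It had 24.7, 24.1, and 21.3 RPM in Un presort and 23.9, 26.2, and 18.3 in In presort, a log2 fold change of 0.01 ± 0.19 that was -0.10 tag-balanced (95% interval -0.59 to 0.39, and -0.56 to 0.36 with the block). With the replicate block on tag-balanced values, 6 of the 8 cascade mutants (all but *ste11*Δ and *kss1*Δ) had an unadjusted p under 0.05 in the positive direction, against 4.16% of all mutants. None passed after adjustment, where the smallest value, that of *ste4*Δ, was an adjusted p of 0.377 in limma.

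The arrest factor mutant *far1*Δ (YJL157C) stayed near its Un presort level. It had 97.1, 117, and 87.0 RPM in Un presort and 113, 109, and 89.5 in In presort, a log2 fold change of 0.07 ± 0.16. Tag-balanced it was 0.06, with a 95% interval of -0.29 to 0.41, and of -0.23 to 0.35 with the block. The value of *ste4*Δ, 0.38, lies inside the first of these intervals and outside the second, and the difference between both mutants was not tested. Far1 binds and inhibits G1 cyclin-dependent kinase and directs polarized growth toward a partner. Of the 5 tested mutants of arrest and polarity (*far1*Δ among them), 0 passed and the median was -0.04.

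The mutants of mating-type silencing also leaned toward a larger share. Sir1 to Sir4 keep the silent copies of the mating-type genes off. The list had 6 genes, of which 4 were tested; none passed, and 2 of the 4 had an unadjusted p under 0.05, both higher, against 0.586% of all mutants. The *sir2*Δ strain (YDL042C, the NAD-dependent histone deacetylase) had 219, 194, and 175 RPM in Un presort and 251, 242, and 289 in In presort (log2 fold change 0.41 ± 0.13, adjusted p 0.999 in edgeR). The *sir3*Δ strain (YLR442C) had 273, 253, and 239 against 297, 304, and 318 (0.27 ± 0.09). The groups of both mutants did not overlap in the summed counts, as held for 2.05% of all mutants in this direction.

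The *sir1*Δ strain (YKR101W), the most abundant of the 4, had 1196, 1132, and 875 RPM against 1320, 1117, and 1222 (0.20 ± 0.15). Its summed values overlapped, whereas its tag-balanced values did not (1191, 1074, and 942 against 1334, 1235, and 1206). The *sir4*Δ strain (YDR227W) was read mostly through its UPTAG, and its summed values of 380, 328, and 135 against 331, 155, and 442 RPM were lowest in the 2 replicates with the smallest UPTAG shares. Its tag-balanced RPM were 353, 266, and 256 against 386, 278, and 417. Its log2 fold change was 0.12 ± 0.52 summed, and 0.59 as the mean of an UPTAG difference of 0.18 and a DNTAG difference of 0.99. The 95% interval of the latter was -0.0026 to 1.18, and 0.045 to 1.13 with the block.

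**Figure D3:**
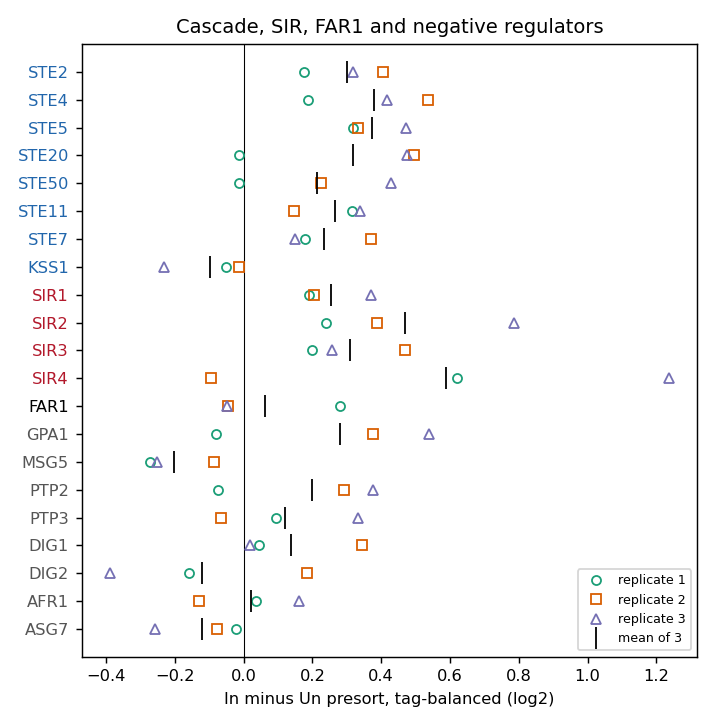
Difference between In presort and Un presort of the same replicate number, in tag-balanced log2 units, for each tested mutant of the cascade (blue names), of the *SIR* genes (red), of *FAR1* (black), and of the negative regulators (grey). The black ticks are the means of the 3 differences: 7 of the 8 cascade mutants and all 4 *SIR* mutants have a mean above 0, and *KSS1* has a mean of -0.10.

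Among the negative regulators of the response, 8 of 11 were tested, 0 passed or had an unadjusted p under 0.05, 5 were positive, and the median was 0.05. *SST2*, *BAR1*, and *AKR1* mutants had too few reads. The strain listed for *GPA1*, the Gα subunit whose loss activates the pathway in haploids, had 140, 100, and 99.9 RPM in Un presort and 129, 134, and 152 in In presort (0.28 ± 0.17). The study states that this deletion is lethal in haploids and that its screen did not identify the mutant. The strain counted under this name was enriched among cells without GFP (given below), and its identity was not tested. The *msg5*Δ strain, without the phosphatase of Fus3, went the other way, with 228, 272, and 327 against 186, 262, and 241 (-0.26 ± 0.18). Its values were lower in each replicate number, but the groups overlapped.

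The other regulators had summed log2 fold changes from -0.19 to 0.19. The log2 fold change was 0.16 ± 0.12 for *ptp2*Δ and 0.10 ± 0.19 for *ptp3*Δ, which lack tyrosine phosphatases of MAP kinases. It was 0.19 ± 0.19 for *dig1*Δ and -0.07 ± 0.15 for *dig2*Δ, which lack inhibitors of Ste12. It was 0.01 ± 0.08 for *afr1*Δ, a regulator of receptor signaling and shape, and -0.19 ± 0.17 for *asg7*Δ, an inhibitor of Gβ. The tags of *dig1*Δ disagreed (1.04 and -0.77).

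The remaining lists gave no call. Of mutants in a-factor maturation, 7 were tested, with a median log2 fold change of 0.01 summed and 0.02 tag-balanced. The 10 mutants in mating effectors had medians of -0.05 and -0.06, and the 11 in genes known for survival in pheromone had -0.03 and -0.05, in the same order. The sign turned for the 8 mutants in G1 cell cycle genes (-0.03 summed and 0.06 tag-balanced) and for the 4 in genes with a role in MATα cells (-0.03 and 0.02). The medians were 0.04 and 0.05 for 26 mutants of the cytosolic ribosome, of which *rps12*Δ had an unadjusted p under 0.05. For the 11 mutants of the mitochondrial ribosome they were 0.04 and 0.13. Of these 11, 6 were positive from the summed counts (54.5%, against 48.1% of all mutants). Tag-balanced, 10 of the 11 were positive, against 52.2% of all mutants. In all 3 replicates, 4 of the 11 were positive (36.4%, against 15.0% of all mutants). The median difference of the 11 was 0.16, -0.11, and 0.54 in replicates 1, 2, and 3. The 11 include *rsm25*Δ and *mrpl28*Δ, which also belong to the mutants that dominated the cells without GFP, described below. The 4 mutants of the respiratory chain had medians of -0.0042 and -0.02. A single mutant of the vacuolar proton pump, *stv1*Δ, was tested, and its value was -0.31 summed and 0.43 tag-balanced.

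The osmosensing HOG pathway had 9 of 9 members tested, with a median of -0.02 from the summed counts and -0.09 tag-balanced. With the block, 3 were lower at an unadjusted p under 0.05, against 1.79% of all mutants. These were *hog1*Δ (the MAP kinase, -0.26 tag-balanced), *ssk1*Δ (a response regulator, -0.18), and *hkr1*Δ (an osmosensor, -0.15). The value of *hkr1*Δ came from its DNTAG alone, and its summed log2 fold change was 0.09 ± 0.36. These 3 mutants are named after their values were seen, and none was called.

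The mutants that dominated the cells sorted for lack of GFP had a larger share in α-factor as a group, although none was called. They were chosen after the presorted values had been seen, and by the sorted libraries alone: the 50 mutants with the largest mean share of reads in Un Gfp–, the uninduced cells sorted for lack of reporter signal. Of these, 47 were also among the 50 largest of In Gfp–, the corresponding induced cells. The pools were sorted from the library cultures of the same series, so they are not independent of them. All 50 were tested, 0 passed, and 47 had a positive log2 fold change from the summed counts (94.0%, against 48.1% of all mutants). The median was 0.26 summed and 0.31 tag-balanced, with the 25th and 75th percentiles of the tag-balanced values at 0.22 and 0.38. No test was made over the group. The summed median was 0.08 without In presort replicate 1 and 0.53 without Un presort replicate 1.

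The difference was seen in each replicate number and with each tag. The median tag-balanced difference was 0.20 in replicate 1, 0.33 in replicate 2, and 0.38 in replicate 3, and 39 of the 50 were higher in all 3 replicates, against 513 of the 3414 mutants. The median was 0.29 from UPTAG reads and 0.28 from DNTAG reads, and 41 of the 46 members with both tags were higher by both, against 862 of 2974. All members were read in the same replicates, so counts of members are not independent observations. The differences by replicate number also rest on the assumed pairing. Together, the 50 took 8.19%, 5.23%, and 5.64% of the tag-balanced reads in Un presort and 9.11%, 6.38%, and 7.21% in In presort, which is 6.35% ± 1.60 (SD) against 7.57% ± 1.40, a ratio of 1.19. Replicate 1 was high in both groups, so the groups overlapped, while every induced replicate was above the uninduced replicate of its number.

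**Figure D4:**
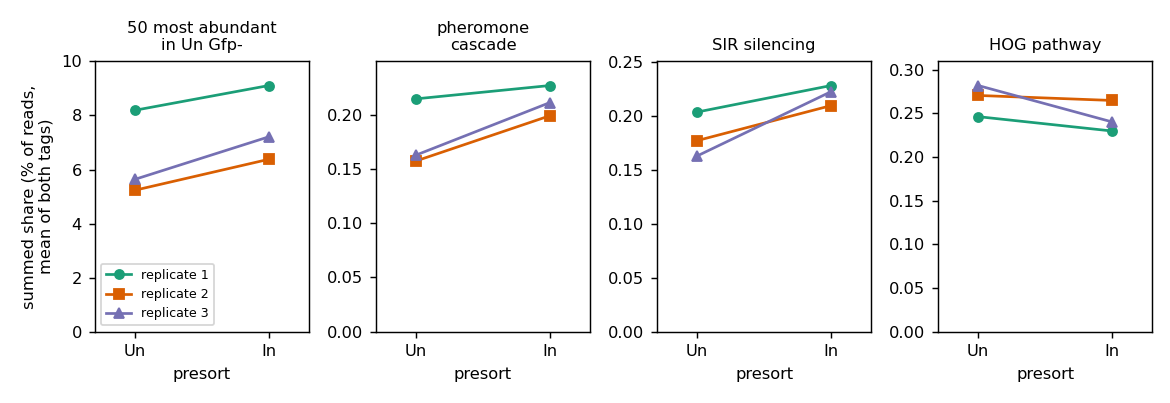
Summed share of tag-balanced reads, in percent from 0, of the 50 mutants most abundant in Un Gfp–, of the cascade list, of the *SIR* list, and of the HOG list, with a line joining the Un presort and In presort values of each replicate number. The In presort value is the higher one in each of the 3 replicates in the first 3 panels, and the lower one in the HOG panel; no list was tested.

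The largest strain of the pool without GFP was the one listed for *PLP2* (YOR281C), whose product is a phosducin-like protein that assists protein folding. The identity of this strain was not tested. It held 11.6% ± 1.39 (SD, n = 3) of the Un Gfp– reads. It was also the most abundant mutant before sorting, with 9596, 4911, and 5324 RPM in Un presort and 11086, 6276, and 7686 in In presort (log2 fold change 0.34 ± 0.34 summed). The tag-balanced value was 0.38, with a 95% interval of -0.33 to 1.09 without the block, which spans 0. With the replicate number as a block it was 0.25 to 0.51, with an adjusted p of 0.265 in limma. The difference was 0.22, 0.42, and 0.50 in replicates 1, 2, and 3. The *hsp104*Δ strain (a disaggregase) had 6688, 4091, and 4798 RPM against 7651, 5252, and 6110, and *vts1*Δ (an RNA-binding protein) had 5053, 3149, and 3260 against 5809, 4054, and 4034. Replicate 1 was the highest of each group in all 3 strains.

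The smallest adjusted p of the blocked fit, 0.0757 in limma, belonged to *ahk1*Δ (YDL073W), which lacks a scaffold protein of the Hkr1 branch of the HOG pathway. It had 1739, 1120, and 1640 RPM against 2481, 1777, and 2133, and a tag-balanced log2 fold change of 0.55 (95% interval 0.15 to 0.95, and 0.43 to 0.67 with the block). The differences of the 3 replicates were close, at 0.47, 0.52, and 0.65. The strain of the neighboring gene, *bre1*Δ (YDL074C; Bre1 is the ubiquitin ligase of histone H2B), had 2392, 1381, and 1420 against 2752, 1661, and 2215 (0.40 tag-balanced). The *stb5*Δ strain, which lacks a transcription factor, had tag-balanced RPM of 251, 151, and 176 against 316, 226, and 270. Its tag-balanced log2 fold change of 0.71 was the largest of the 50, as the mean of 1.02 from the UPTAG and 0.40 from the DNTAG. From the summed counts, the largest was that of the YPR126C strain (0.72, against 0.69 for *stb5*Δ), which had a single usable tag.

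Other members covered unrelated functions. The *ssn2*Δ strain, which lacks a subunit of the Mediator kinase module, had a tag-balanced log2 fold change of 0.36, *rsm25*Δ (mitochondrial ribosome) had 0.38, *air1*Δ (RNA surveillance) had 0.42, and *rnr3*Δ (ribonucleotide reductase) had 0.32. In the study's individual retests, the library strains of *SSN2*, *AIR1*, *RNR3*, *HSP104*, *VTS1*, *AHK1*, and *STB5* had a wild-type reporter phenotype, as did further members of the 50. Those of *RSM25*, YPR126C, *PDR17*, YIL154C, and YIL012W lacked GFP and were not induced. The strains of *AAC3*, *RPS12*, and YHR177W had a lower basal signal and no induction. That of *SSM4* had a lower basal signal, as did its newly made deletion. Newly made deletions of YPR126C, *PDR17*, YIL154C, YIL012W, *AAC3*, YHR177W, and *BRE1* were wild-type. The values belong to the pooled strains, and whether they follow from the named deletion was not tested. The 50 also held 7 mutants of the cascade, regulator, and *SIR* lists, namely *ste4*Δ, *ste5*Δ, *ste7*Δ, and *sir1*Δ to *sir4*Δ, and the median of the other 43 was 0.31. These 43 include the YDL041W strain (0.31 tag-balanced), whose deleted frame overlaps *SIR2* completely by the study's list. Some members were near 0. The single member with a tag-balanced value below 0 was *his1*Δ (-0.05), which lacks an enzyme of histidine synthesis, and *pus4*Δ, without a pseudouridine synthase, was at 0.01.

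The size of the difference followed the rank in the pool without GFP. The tag-balanced median was 0.34 for ranks 1 to 25, which took 75.8% of the Un Gfp– reads, and 0.27 for ranks 26 to 50. It was 0.17 for ranks 51 to 100, 0.04 for the 99 tested mutants of ranks 101 to 200, and -0.01 for the 195 tested of ranks 201 to 400. From rank 401 to 800 it was -0.0014, and beyond rank 800 it was 0.01. The share of mutants with a positive value fell from 100% to 96.0%, 86.0%, 60.6%, and 44.1% over the first 5 of these classes, and was 49.1% and 51.4% in the last 2. The most abundant mutants before sorting were not all higher. Among the 10 most abundant mutants of the presorted libraries, the 6 within the 50 had summed log2 fold changes of 0.18 to 0.34, and the other 4 (*mpa43*Δ, *fsh2*Δ, *prc1*Δ, and *sdd2*Δ) had 0.04, 0.01, -0.03, and -0.01.

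**Figure D5:**
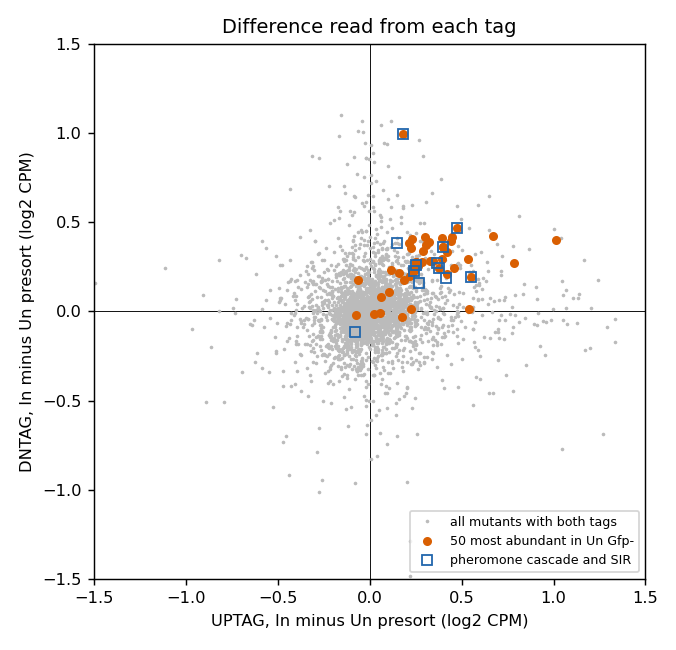
Difference between In presort and Un presort in log2 CPM read from the UPTAG (x axis) and from the DNTAG (y axis), 1 grey point for each mutant with both tags, with the 50 mutants most abundant in Un Gfp– in orange and the tested cascade and *SIR* mutants as blue squares. Of the 46 orange mutants, 41 lie above 0 on both axes, and 5 grey points fall outside the axes.

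The named mutants can be set beside their values in the sorted pools, which share the presorted replicates and are given without comparison. The log2 enrichment in Un Gfp– over Un presort was 9.24 for *ste4*Δ, 9.30 for *sir2*Δ, 9.12 for *rps12*Δ, 8.84 for *egd2*Δ, 8.22 for *soa1*Δ, and 9.19 for the *GPA1* strain. The other mutants of smallest p on the higher side had -1.77 (*zip1*Δ) and -1.23 (*csa1*Δ). It was 3.88 for *kss1*Δ, 0.68 for *ste2*Δ (adjusted p 0.31 in edgeR), and -0.81 for *far1*Δ (adjusted p 0.39 in edgeR). In In Gfp– over In presort, *ste2*Δ had 2.15, *kss1*Δ 3.50, and *far1*Δ -1.28. On the lower side, *pfa5*Δ had -1.52 in Un Gfp– and -1.65 in In Gfp–, *apa1*Δ had -1.23 and -2.16, *psd2*Δ had -0.59 and 0.18, and *mpf1*Δ had 0.44 and 0.11. No value is given for *hop1*Δ and *irs4*Δ, which had no reads in 1 of the pools.

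The left arm of chromosome IX carries *BAR1*, where the reporter was integrated. Of the 172 mutants listed for this arm, 110 were tested, 0 passed, and the median log2 fold change was 0.02. The 15 of them that were among the 50 had a median of 0.27, and the 94 tested mutants of the arm outside both sets of 50 had 0.0041. At an unadjusted p under 0.05, 1 of the 94 was higher and 2 were lower, against 0.586% and 0.41% of all mutants. The arm as a whole took 3.58% ± 0.43 (SD, n = 3) of the tag-balanced reads in Un presort and 3.87% ± 0.39 in In presort.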

How the data were processed

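The authors amplified the barcodes from genomic DNA by PCR, aligned the reads with Bowtie2, counted them per barcode in R, and deposited raw read counts per mutant and tag, without normalization. Per the labels, replicate 1 was sequenced on another Illumina model than replicates 2 and 3. Of the 48 columns of the table, 24 were used, and 24 whose names match no single sample were not. Gene names came from an R64 table, used for names only (5651 of 6128 matched).

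The counts of both tags of a replicate were summed, and In presort was tested against Un presort (3 replicates each, two-sided) with edgeR 4.0.16 in R 4.3.3 (quasi-likelihood test, TMM, Benjamini-Hochberg, threshold 0.05). Mutants below 50 mean reads in Un presort were left out. The SE was derived from the F statistic. For the tag-balanced log2 fold changes, which were added after seeing the data, log2 CPM (prior count 2) of each tag with at least 10 mean reads was averaged over tags and tested with limma 3.58.1. DESeq2 1.42.0 was an alternative. The fits were tested on simulated data.

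By the methods, an aliquot was divided over both flasks, but no label ties replicates of the same number. Their deviations from the mean of their group correlated at 0.58, -0.63, and -0.67 (replicates 1, 2, and 3) in the summed counts. Tag-balanced, they correlated at 0.64, 0.36, and 0.22. Replicates of unequal number correlated too. In the summed counts, Un presort 3 and In presort 2 correlated at 0.83, and Un presort 2 and In presort 3 at 0.71. Tag-balanced, Un presort 2 and In presort 3 correlated at 0.26. The fits with a block treat equal numbers as pairs, an assumption that these values do not establish. Replicate 1 of both groups also had its own sequencer model, and the effect of this was not tested.

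The mutants named are the 6 of smallest p in each direction, since none passed, and every tested mutant of the cascade, silencing, and negative regulator lists and *FAR1*. The members and lists were chosen with earlier results of these data known. p-values measure the spread between these replicates only, and PCR reads without molecular identifiers are not independent molecules. Figures were drawn with matplotlib 3.10.9. The barcode sequences were not used here.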

Additional observations from a re-analysis of the deposited data

How the results depend on the processing

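No mutant passed the adjusted threshold in either direction under any of the 23 alternatives, 5 of which (the tag-balanced ones) were chosen after seeing the data, and which were fitted with edgeR, DESeq2, or limma as described. Against 34 mutants with an unadjusted p under 0.05, the count was 58 with the replicate block, 71 from the UPTAG alone, 63 tag-balanced, and 203 tag-balanced with the block. Without 1 replicate number in both groups or 1 library, it ran from 9 (without replicate 2) to 552 (without replicate 3); it was 245 without Un presort replicate 3, 61 without Un presort replicate 1, and 14 without Un presort replicate 2. Tag-balanced, it was 134, 71, and 22 without replicates 1, 2, and 3. The cause was not tested.

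The median log2 fold change of the cascade list stayed positive under every alternative (0.18 to 0.41), as did that of the *SIR* list (0.12 to 0.47) and of the 50 mutants of Un Gfp– (0.08 to 0.53). That of the HOG list ran from -0.28 to 0.10. Of the 32 named mutants, 24 kept their direction under every alternative and 8 did not. For *KSS1*, the log2 fold change turned negative from the UPTAG (-0.072), with the replicate block (-0.030), and tag-balanced with or without the block (-0.10; -0.12, -0.14, and -0.032 without replicates 1, 2, and 3). It turned negative from the DNTAG for *DIG1* (-0.45) and *AFR1* (-0.027), and positive from the UPTAG for *ASG7* (0.25). Tag-balanced, it turned without replicate 3 for *DIG2* (0.014) and *AFR1* (-0.047), and without replicate 1 for *FAR1* (-0.047). Leaving out replicates or libraries of the summed counts gave ranges of -0.075 to 0.10 for *KSS1*, -0.057 to 0.23 for *PTP3*, -0.25 to 0.056 for *DIG2*, -0.047 to 0.085 for *AFR1*, -0.54 to 0.58 for *SIR4*, and -0.021 to 0.20 for *FAR1*. The cause was not tested. Without In presort replicate 3, the shallowest at 547624 reads, 0 mutants were called and 23 had an unadjusted p under 0.05; with at least 200 mean reads in Un presort, 0 were called and 25 had one.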
